A study of Mus musculus with 15 samples.

Results

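The change in gene expression over 24 h of treatment was compared gene by gene between a degron line and a deletion line of ESCs. The degron line loses the OCT4 protein through a degron, and the deletion line loses the *Pou5f1* gene by recombination. For each gene, the log2 change in the deletion line was subtracted from the log2 change in the degron line, on counts scaled by the trimmed mean of M values (TMM). Genes entered with a mean raw count of 50 or more in each line over its libraries used here, which kept 12107 of 48709 genes. The degron line alone had 13758 such genes and the deletion line 13605. Just inside it, *Agrp* at a mean of 50 counts in its lower line had a difference of 0.74 and *Calr3* of 0.03, whereas just outside it, at 49.8 counts, *Tmem42* had 2.11 and *Ccdc173* -0.05.

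The degron line, O4AID, is Oct4-/- on a 129SV background and carries a TetOFF Oct4 transgene, with Oct4AID and Tir1 each under CAG. Its endogenous *Pou5f1* is lost, its wild-type TetOFF transgene is silenced with doxycycline at 1 µg/ml, and an OCT4 fused to an auxin-inducible degron is expressed from the CAG promoter, as is Tir1, the plant F-box protein that binds the degron when the auxin IAA is present. IAA was given at 500 µM for 24 h, and 1 library was sequenced at 0 h and 1 at 24 h. The deletion line, CreER, has the genotype Oct4Fl/-; CAG CreER on a mixed 129SV and C57BL/6 background, and 4-OHT at 500 nM activates the recombinase that removes its only intact allele; 2 libraries were sequenced at 0 h and 2 at 24 h. Both lines are given as grown in N2B27 with PD03, Chiron and LIF, that is, with inhibitors of the ERK pathway and of GSK3. For the deletion line, however, the paper's course of OCT4 depletion paired 4-OHT with a change to a serum and LIF medium, listed without these inhibitors. Whether that held for the libraries compared here is not stated in the sources used. Route, agent, strain background, transgenes, doxycycline and possibly medium differ together between the lines and cannot be told apart in these libraries. Outside them, the paper measured selected genes by qRT-PCR in O4AID ESCs, in O4AID induced pluripotent stem cells and in eGFP-AID ESCs. By its account of the eGFP-AID cells, neither IAA nor Tir1 activity caused the loss of pluripotency gene expression or the rise of trophectoderm markers. Each O4AID time is a single library, so its values compare those libraries and not the conditions.

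OCT4 is a POU-domain transcription factor that binds the octamer motif, often beside SOX2, and holds ESCs in the pluripotent state together with NANOG, KLF4, ESRRB and other factors of the naive network. Mouse ESCs that lose OCT4 leave this state and take on features of trophectoderm, the outer layer of the blastocyst that gives rise to the placenta. A degron removes existing protein, whereas deletion of the gene stops new mRNA and leaves mRNA and protein already made to decay. The paper reports that the tagged protein became undetectable within hours of IAA. In the deletion line, by its account, full loss of *Pou5f1* RNA and OCT4 protein took more than a day. The 24 h libraries therefore do not compare equal times without OCT4.

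Promoters of the genes that the results turn on are shown first, from RefSeq on GRCm38.p6, each from 250 bases before the start of transcription to 50 after it. *Cyp1a1* (chr9:57697363-57697662, plus strand), *Cyp1b1* (chr17:79715012-79715311, minus strand) and *Tiparp* (chr3:65528197-65528496, plus strand) are shown because they stood among the genes that rose more in O4AID. They belong to the battery of the aryl hydrocarbon receptor (AhR), and capitals mark GCGTG, the core of the element that AhR binds, read on either strand.
Cyp1a1: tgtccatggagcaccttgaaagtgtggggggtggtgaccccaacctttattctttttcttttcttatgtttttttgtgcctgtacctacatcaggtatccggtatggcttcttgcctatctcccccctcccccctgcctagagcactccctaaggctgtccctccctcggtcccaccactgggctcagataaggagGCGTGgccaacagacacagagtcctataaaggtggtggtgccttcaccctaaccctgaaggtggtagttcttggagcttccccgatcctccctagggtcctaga
Cyp1b1: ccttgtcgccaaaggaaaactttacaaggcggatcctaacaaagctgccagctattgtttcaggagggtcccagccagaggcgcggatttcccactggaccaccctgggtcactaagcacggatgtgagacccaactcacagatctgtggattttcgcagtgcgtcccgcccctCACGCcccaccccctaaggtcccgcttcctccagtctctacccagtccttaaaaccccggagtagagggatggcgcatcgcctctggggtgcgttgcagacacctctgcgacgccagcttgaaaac
Tiparp: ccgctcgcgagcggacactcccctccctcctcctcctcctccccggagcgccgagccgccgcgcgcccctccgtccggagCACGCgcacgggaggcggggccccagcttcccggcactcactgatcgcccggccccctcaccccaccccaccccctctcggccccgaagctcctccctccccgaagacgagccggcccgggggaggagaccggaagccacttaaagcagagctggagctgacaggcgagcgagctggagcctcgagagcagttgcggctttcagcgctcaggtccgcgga

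*Nanog* (chr6:122707315-122707614, plus strand, the second of 2 listed starts) and *Zfp42* (chr8:43306960-43307259, minus strand) are pluripotency genes that fell in O4AID. Capitals mark the composite octamer and SOX element in *Nanog* and the octamer ATTTGCAT in *Zfp42*. *Cdx2* (chr5:147307200-147307499, minus strand), a trophectoderm gene that was higher by either route, is shown with its octamer, on the other strand, for comparison.
Nanog: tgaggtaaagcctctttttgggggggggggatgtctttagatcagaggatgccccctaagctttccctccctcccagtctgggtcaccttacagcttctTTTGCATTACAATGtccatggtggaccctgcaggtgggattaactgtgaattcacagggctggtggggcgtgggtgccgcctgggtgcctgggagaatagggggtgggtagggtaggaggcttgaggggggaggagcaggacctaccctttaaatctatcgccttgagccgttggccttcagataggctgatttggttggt
Zfp42: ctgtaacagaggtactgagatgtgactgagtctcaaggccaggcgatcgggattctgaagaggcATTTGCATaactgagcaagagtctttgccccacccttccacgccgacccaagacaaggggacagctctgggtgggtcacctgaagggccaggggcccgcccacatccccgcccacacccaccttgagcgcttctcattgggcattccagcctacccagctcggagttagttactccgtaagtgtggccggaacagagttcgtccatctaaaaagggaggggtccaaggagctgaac
Cdx2: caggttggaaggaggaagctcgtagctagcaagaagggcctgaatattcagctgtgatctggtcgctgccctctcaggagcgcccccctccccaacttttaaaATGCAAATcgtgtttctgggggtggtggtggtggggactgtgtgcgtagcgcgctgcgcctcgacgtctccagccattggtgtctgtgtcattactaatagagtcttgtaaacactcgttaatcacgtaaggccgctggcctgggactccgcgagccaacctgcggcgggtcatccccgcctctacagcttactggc

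The single match of GCGTG began 54 bases before the start in *Cyp1a1*, 76 in *Cyp1b1* and 170 in *Tiparp*. The octamer began 186 bases before the start of *Zfp42* and 147 before that of *Cdx2*, and the joined element 151 before that of *Nanog*. GCGTG is common: of 32851 promoters, 32.4% held it on some strand, against 1.74% for ATTTGCAT. It also occurs, unmarked, in the printed promoters of *Nanog* and *Zfp42*, genes that fell in O4AID. The joined element, which was searched after the data were seen, was found in 3 promoters, of which 2 are the overlapping starts of *Nanog*.

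Counted reads totalled 46.4 and 48.7 M (mega) in the O4AID libraries, against 24.5 to 29.6 M in the 4 of CreER. Levels are given as TMM-scaled counts per mega-read (CPM). A change in O4AID is called higher or lower from its size, at 1 or more on the log2 scale, with no test, and no source used here says that the CreER replicates came from separate cultures, so that p-values measure the spread between these libraries. *Pou5f1* (ENSMUSG00000024406, chromosome 17, 35506018 to 35510772, plus strand, GRCm38) is the gene targeted in CreER, where it stood at 321.2 and 317 CPM at 0 h and at 132 and 134 CPM at 24 h. Both 24 h libraries lay below both 0 h libraries, and the log2 change was -1.26 (SE 0.0441, edgeR adjusted p 2.86e-17). In O4AID, where IAA acts on the protein, *Pou5f1* read 766 CPM at 0 h and 633 CPM at 24 h, a log2 change of -0.27 with a 95% counting interval of -0.30 to -0.25. Counts per gene do not separate the transgenes from the endogenous gene, and intervals cover counting error only. The markers fixed for embryonic stem cells (*Pou5f1*, *Sox2*, *Nanog*, *Zfp42*, *Esrrb* and *Klf4*) summed to 3880 CPM in O4AID at 0 h and to 1755 and 1800 CPM in CreER, and at 24 h to 1341 CPM and to 1540 and 1560 CPM, with no gene at 0. Markers of primitive endoderm summed to 9.54 CPM at 0 h and 33.1 CPM at 24 h in O4AID, and to 4.46 and 4.72 CPM and then 7.10 and 7.72 CPM in CreER. In these bulk samples, fewer cells of a type and less RNA per cell cannot be told apart. Markers of mesendoderm summed to 1.76 to 8.50 CPM and markers of fibroblasts to 2.55 to 9.49 CPM over the 6 libraries, with *Postn* at 0 in both O4AID libraries, and their part in the results below was not tested.

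The next question was how large the 24 h change was by either route, and for how many genes the routes differed. Changes were larger in O4AID: the standard deviation (SD) of the log2 change over the 12107 genes was 0.67 in O4AID and 0.25 in CreER. A log2 change of at least 1 in size was seen in 1124 genes in O4AID (617 higher and 507 lower) and in 61 in CreER (47 higher and 14 lower). These are 9.28% of the genes in O4AID (5.1% higher and 4.19% lower) and 0.504% in CreER. The difference of the changes had a median of -0.06 and an interquartile range of -0.32 to 0.23.

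A difference of at least 1 in size was seen in 1002 genes (8.28%). It held on leaving out each of the 4 CreER libraries in turn in 843 (6.96%), which are the genes called for a difference below: 464 had a lower change in O4AID than in CreER (3.83%) and 379 a higher one (3.13%). Of the 843, the larger change was in O4AID for 813 and in CreER for 30, and both changes had the same sign in 445. Replicates in CreER were much closer than this, since the change taken from libraries of the same number differed by at least 1 between the pair of numbers in 23 genes (0.190%). There is no such check in O4AID, so no p-value is given for the difference. An edgeR interaction that assumed O4AID libraries to vary like the CreER replicates was also run. It tests the same difference that the 843 genes were chosen for, in the same libraries, so it is no independent support for them. The share of calls that were higher in O4AID was 44.96% and rested on the scaling, as total counts put it at 56.0% and moved the median difference by 0.10.

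Across genes the changes of the routes were related but loosely, at r 0.39 (Pearson) and rho 0.40 (Spearman) over 12107 genes, which are not independent replicates and share their libraries. The sign was the same in 65.8% of the genes. By edgeR's quasi-likelihood test, 3420 of these genes changed in CreER at an adjusted p under 0.05 (28.2%, 1683 higher and 1737 lower), and 75.7% of those had the same sign in O4AID. Over all 18969 genes tested in CreER, 4089 passed, against 2595 with DESeq2, 2470 without the first and 2343 without the second 24 h library, and the share of higher calls was 51.0%, or 61.3% under total counts. Over genes with a mean of at least 1000 counts in both lines, r was 0.42 over 4768 genes.

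**Figure D1:**
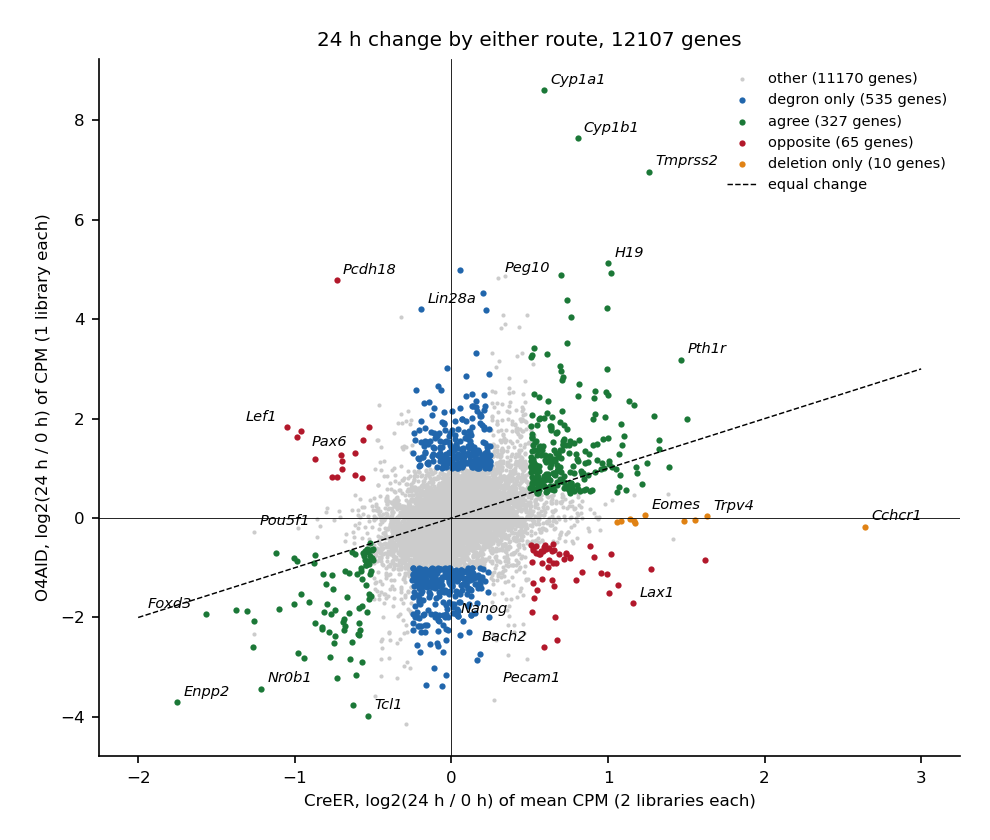
Log2 change from 0 h to 24 h in CreER (x axis, ratio of mean CPM over 2 libraries at each time) and in O4AID (y axis, 1 library at each time) for 12107 genes, as points coloured by class, with a dashed line where the changes are equal. The y axis spans a wider range than the x axis, *Cyp1a1*, *Cyp1b1* and *Tmprss2* lie above a log2 change of 6 in O4AID, and *Cchcr1* lies alone at 2.64 in CreER.

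Genes were then put into classes. A gene agreed where both changes were at least 0.5 in size with the same sign and the CreER adjusted p was under 0.05. This held for 327 genes, 242 higher in both lines (2% of the genes) and 85 lower in both (0.702%). In 278 of the 327 the change was larger in O4AID, with a median ratio of the O4AID to the CreER change of 1.72. In 84 the difference was itself called, and in 29 genes both changes reached 1, 20 higher and 9 lower. Outside every class given here were 11170 genes (92.3%).

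Among genes lower in both lines were regulators tied to the pluripotent state. *Nr0b1* (chromosome X), an orphan nuclear receptor of the ESC network, fell from 56.0 to 5.20 CPM in O4AID, and from 24.7 and 25.2 CPM to 10.0 and 11.5 CPM in CreER. Its log2 changes were -3.43 (95% counting interval -3.63 to -3.24) and -1.21 (SE 0.0846, edgeR adjusted p 3.37e-11), so that it fell in both lines and further in O4AID. *Foxd3*, a forkhead factor of the early epiblast, had more similar changes, -1.93 in O4AID and -1.57 in CreER, from 8.34 to 2.18 CPM and from 13.8 and 12.4 CPM to 3.96 and 4.87 CPM. Its difference of -0.36 ranged from -0.51 to -0.21 on leaving out a CreER library. *Enpp2*, which encodes autotaxin, a secreted enzyme that makes lysophosphatidic acid, had the largest fall of the class in CreER, at -1.75, and fell by 3.70 on the log2 scale in O4AID. The other genes named by their smaller change were *Cobl* (an actin nucleator, -1.84 in O4AID and -1.37 in CreER), *Mcf2* (-1.88 and -1.30), *Myb* (-2.59 and -1.27), *Rasgrp1* (-2.06 and -1.26) and *Zic5* (-1.83 and -1.10). *Tet2*, a methylcytosine dioxygenase, was in the class at -1.92 and -0.65.

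Among genes higher in both lines, *Rab3il1* had the largest smaller change. It read 3.46 and 13.7 CPM at 0 and 24 h in O4AID, and 5.04 and 5.68 CPM at 0 h against 14.7 and 15.6 CPM at 24 h in CreER, which is 1.99 and 1.50 on the log2 scale. *Slc40a1*, the iron exporter ferroportin, rose by nearly equal steps, 1.57 in O4AID and 1.32 in CreER, although its level was 1.07 CPM in O4AID and 29.7 and 32.2 CPM in CreER at 0 h. *Pth1r*, the receptor for parathyroid hormone, rose by 3.19 and 1.47, and *Nfam1* by 1.39 and 1.33. *Efnb3*, an ephrin ligand, rose by 2.28 and 1.17, *Thsd4* by 2.04 and 1.29, and *Fam13a* by 2.36 and 1.13. *Tmprss2*, a transmembrane serine protease, stood at 0.273 CPM in O4AID at 0 h and at 34.3 CPM at 24 h, a log2 change of 6.97 (6.16 to 7.93). In CreER it moved from 1.91 and 1.85 CPM to 4.71 and 4.31 CPM, a change of 1.26 (SE 0.157, edgeR adjusted p 7.79e-07), so that it agreed in sign and still had a difference of 5.71.

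Genes with a large change in O4AID and little in CreER, called degron-only genes here, made up the largest classes. A log2 change of at least 1 in O4AID with a change under 0.25 in CreER was seen in 535 genes, 251 higher (2.07%) and 284 lower (2.35%). With little change set at under 0.5, the classes held 461 and 428 genes. No p-value enters this rule, and some members passed the CreER test at a small change, among them *Tbx3* and *Esrrb*. It holds 5 of the 9 pluripotency genes listed here as the study's.

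The 9 pluripotency genes listed here as the study's all passed the count rule, although the paper's text does not name *Sall4*. All 9 were lower in O4AID, 8 by at least 1, with a median log2 change of -1.79. In CreER the median was 0.01, with 2 genes lower and 2 higher at an edgeR adjusted p under 0.05. The median difference was -1.90 and 8 of 9 genes were called lower in O4AID, where 3.83% of all genes were. The list was drawn up with results of these libraries known, so the count is not independent evidence of a direction.

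*Nanog*, the homeodomain factor of the naive state whose promoter is printed above, fell from 1392 to 402 CPM in O4AID and read 562 and 559 CPM at 0 h and 570 and 557 CPM at 24 h in CreER. The log2 changes were -1.79 (-1.82 to -1.77) and 0.01 (SE 0.0374, edgeR adjusted p 0.825). All 4 CreER libraries lay above the O4AID library at 24 h and below that at 0 h. *Klf4*, a Krüppel-like factor, fell from 163 to 29.7 CPM in O4AID and read between 51.0 and 53.6 CPM in the 4 CreER libraries, with a difference of -2.42 (-2.44 to -2.40 on leaving out a CreER library). *Sox2*, the partner of OCT4 at many sites, fell from 337 to 87.1 CPM in O4AID and lay between 255 and 270 CPM in CreER, at log2 changes of -1.95 and -0.05. *Prdm14*, a repressor that keeps ESCs naive, had changes of -1.56 and 0.02.

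*Tbx3* and *Tfcp2l1*, factors downstream of LIF and of GSK3 inhibition, were slightly higher in CreER as they fell in O4AID. *Tfcp2l1* went from 1705 to 528 CPM in O4AID, and in CreER from 205 and 212 CPM to 256 and 243 CPM, at log2 changes of -1.69 and 0.26 (SE 0.0493, edgeR adjusted p 0.000335). *Tbx3* had changes of -1.26 and 0.21 (edgeR adjusted p 0.0218). *Zfp42*, a zinc finger protein used as an ESC marker, fell by either route, from 409 to 75.7 CPM in O4AID and from 318 and 320 CPM to 258 and 251 CPM in CreER, which is -2.43 and -0.33. *Sall4* had the smallest difference of the list, -0.91, with changes of -0.88 and 0.03.

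The 20 other genes of the pluripotent state, all measured, were lower in O4AID without exception, 16 by at least 1. In CreER 17 were lower and 1 higher at an edgeR adjusted p under 0.05, so that this list fell by either route, by a median of -1.78 and of -0.32, and 13 genes were called for a difference, each lower in O4AID. *Tcl1*, a co-activator of AKT, fell from 32.0 to 2.03 CPM in O4AID and from 25.7 and 24.3 CPM to 17.2 and 17.4 CPM in CreER, a difference of -3.45. *Esrrb*, an orphan receptor of the naive network, was the gene higher in CreER: it fell from 814 to 113 CPM in O4AID and had a change of 0.16 in CreER (edgeR adjusted p 0.0107), from 275 and 247 CPM to 294 and 290 CPM. *Fgf4*, the growth factor whose enhancer is bound by OCT4 and SOX2, had changes of -3.17 and -0.61, and *L1td1* of -2.82 and -0.94. *Dppa2* was least different, at -0.28 and -0.06.

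**Figure D2:**
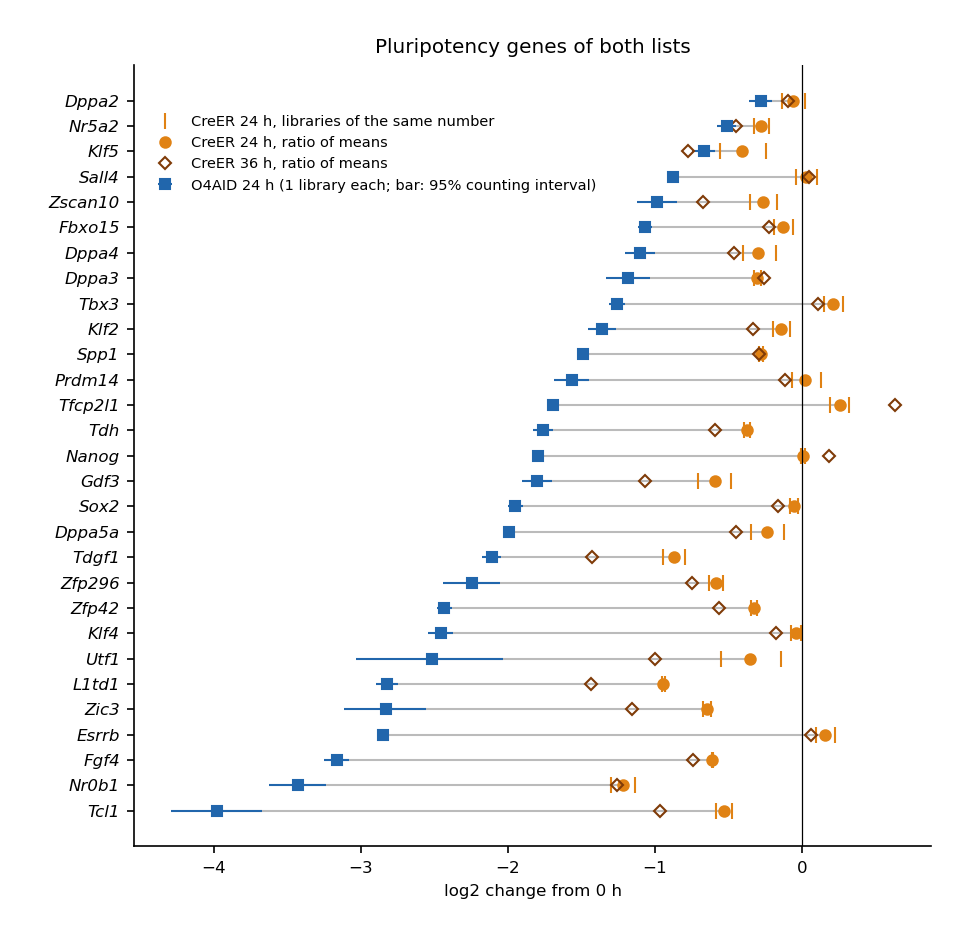
Log2 change from 0 h (x axis) for the 29 genes of both pluripotency lists (y axis, ordered by the change in O4AID). Blue squares are O4AID at 24 h with 95% counting intervals, orange circles CreER at 24 h with ticks for the libraries of the same number, and open diamonds CreER at 36 h. All blue squares lie below 0, from -3.98 in *Tcl1* to -0.28 in *Dppa2*, and the orange circles lie to their right in each gene.

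At 36 h in CreER, which shares the 0 h libraries with the 24 h change, the 9 study genes had a median of -0.12, with 4 lower and 2 higher at an edgeR adjusted p under 0.05, against -1.79 in O4AID at 24 h. The 20 other genes had a median of -0.63 and 18 were lower. *Nanog* stood at 0.19 (edgeR adjusted p 0.000119), *Tfcp2l1* at 0.63 and *Sox2* at -0.16. In O4AID at 6 h, which likewise shares its 0 h library, *Klf4* had a change of -1.63, *Nr0b1* of -1.62 and *Tbx3* of -1.23, whereas *Sox2* had -0.44.

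*Cyp1a1* and *Cyp1b1*, which had the largest rises in O4AID among the genes named, belong to the battery of AhR. AhR is a ligand-activated transcription factor that switches on enzymes of xenobiotic metabolism. *Cyp1a1* (chromosome 9, 57697613 to 57703822, plus strand), a cytochrome P450 and the classical AhR target, read 0.752 CPM at 0 h and 292 CPM at 24 h in O4AID. In CreER it read 2.85 and 2.15 CPM at 0 h and 4.02 and 3.52 CPM at 24 h. The log2 changes were 8.60 (95% counting interval 8.11 to 9.14) and 0.59 (SE 0.172, edgeR adjusted p 0.0101), so that the difference was 8.01 and lay between 7.79 and 8.20 on leaving out a CreER library. It was the largest positive difference of the 12107 genes. *Cyp1b1*, a related P450, rose from 0.524 to 105 CPM in O4AID and from 10.3 and 9.31 CPM to 17.4 and 16.8 CPM in CreER, which gave a difference of 6.84.

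The other measured members were higher in O4AID too. *Tiparp*, a mono-ADP-ribosyltransferase that restrains AhR, had changes of 1.55 in O4AID and -0.14 in CreER (edgeR adjusted p 0.0324). *Nqo1*, a quinone reductase, had changes of 1.43 and 0.36. All 4 were called higher in O4AID, where 3.13% of genes were. The other 3 members fell outside the count rule. *Ahrr*, the AhR repressor, had 126 counts at 0 h and 1708 at 24 h in O4AID and 23 to 59 counts in the 4 CreER libraries, *Aldh3a1* had 86 and 13 in O4AID, and *Cyp1a2* had at most 9 counts in any library. The rise of *Cyp1a1* was present early in O4AID, where it reached 3.92 by 1.5 h, 6.70 by 6 h and 7.89 by 10 h. These values share the 0 h library with the 24 h change. IAA, an indole, was given in O4AID only, so its part in these values cannot be told apart from that of OCT4 loss.

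Among the other large rises were genes that CreER cells already expressed at 0 h. *Peg10*, an imprinted retrotransposon-derived gene needed for the placenta, went from 55.0 to 1567 CPM in O4AID, and stood at 1882 and 1819 CPM at 0 h and 2256 and 2293 CPM at 24 h in CreER. Its difference was 4.53 (4.51 to 4.56), and O4AID at 24 h remained below all 4 CreER libraries. *Lin28a*, an RNA-binding protein that blocks maturation of let-7, rose from 2.53 to 46.7 CPM in O4AID and lay between 512 and 613 CPM in CreER. *Frem2*, a basement membrane protein, rose from 1.75 to 55.5 CPM and lay between 69.0 and 78.3 CPM in CreER. *Igf2* and *H19*, neighbours in an imprinted domain on chromosome 7, encode a growth factor and a long noncoding RNA. *H19* rose from 2.41 to 84.0 CPM in O4AID and from 190 and 171 CPM to 363 and 358 CPM in CreER, and *Igf2* from 0.433 to 12.8 CPM and from 34.7 and 34.0 CPM to 55.7 and 55.9 CPM. *Gbp2b*, *Zfp608*, *Krt19* and *Pcdh18* complete the 12 largest positive differences, at 4.32, 4.38, 4.52 and 5.52, and their 0 h levels in O4AID, from 0.114 to 0.524 CPM, were below those in every CreER library. Their O4AID counts at 0 h were 23, 9, 6 and 5. Also among the 12, *Tmprss2* had 12 counts there, *Igf2* 19, *Cyp1b1* 23 and *Cyp1a1* 33. In O4AID these genes met the count rule through the 24 h library, where they were high, and their ratios rest on few reads at 0 h.

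Of 15 imprinted genes measured of 16 listed, 5 were called higher and 1 lower for the difference, beside 3.13% and 3.83% of all genes. *Sgce*, which shares its promoter region with *Peg10*, had 1.87 and *Phlda2*, which limits placental growth, 2.42. *Grb10*, an adaptor that restrains growth, was the gene lower, from 129 to 26.0 CPM in O4AID and from 32.1 and 32.8 CPM to 24.97 and 27.5 CPM in CreER. The list's median difference was 0.63 against -0.06 over all genes, and *Dlk1* was outside the count rule with 0 and 5 counts in O4AID.

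The lines differed before treatment for many of these genes. The log2 ratio of O4AID to CreER at 0 h had an SD of 1.32 over all genes. Of the 379 genes called higher in O4AID, 209 (55.1%) stood at least 2-fold lower in O4AID than in CreER at 0 h, against 12.1% of all genes. Their median log2 ratio went from -1.17 at 0 h to 0.44 at 24 h. Of the 464 genes called lower, 188 (40.5%) stood at least 2-fold higher in O4AID at 0 h, against 20.2% of all genes, and their median ratio went from 0.44 to -1.15. The 0 h libraries enter both the ratio and the difference, so these shares are a description.

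**Figure D3:**
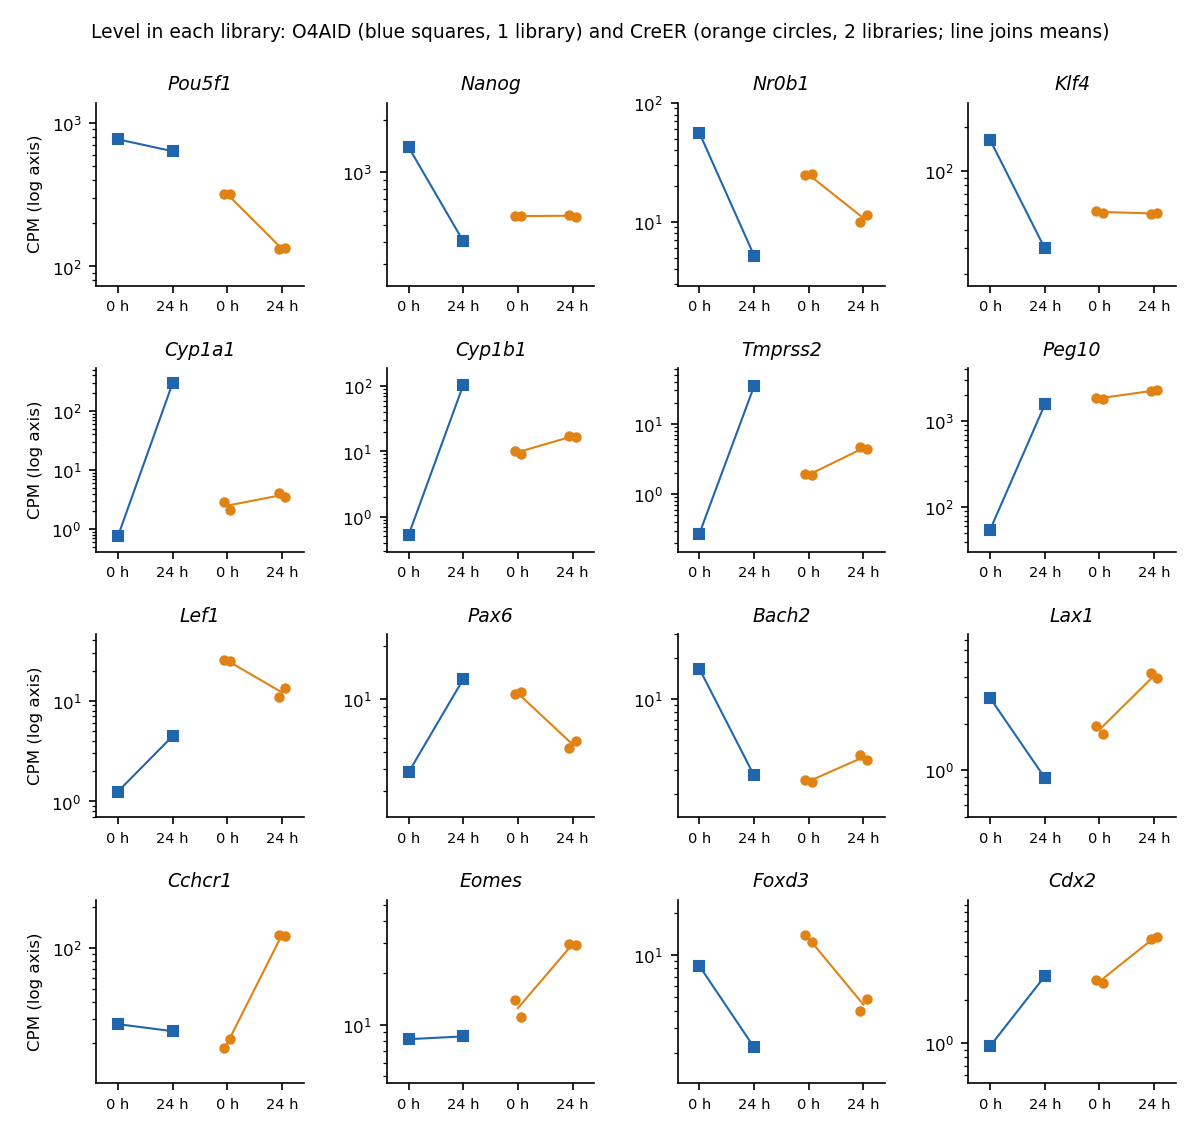
CPM on a log axis in each library for 16 genes, with O4AID at 0 h and 24 h (blue squares, 1 library each) and CreER at 0 h and 24 h (orange circles, 2 libraries each, line through the means). *Nanog* and *Klf4* drop in O4AID alone, *Cyp1a1* and *Peg10* rise steeply in O4AID, *Lef1*, *Pax6*, *Bach2* and *Lax1* move in opposite directions, and *Cchcr1* and *Eomes* rise in CreER alone.

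The 12 most negative differences included adhesion molecules and enzymes. *Pecam1* (chromosome 11), an adhesion molecule of ESCs and endothelium, fell from 207 to 29.2 CPM in O4AID and rose in CreER from 83.1 and 85.3 CPM to 120 and 116 CPM, at log2 changes of -2.83 and 0.48 (SE 0.0490, edgeR adjusted p 1.99e-08). *Jam2*, a junctional adhesion molecule, fell from 335 to 24.9 CPM and from 71.8 and 66.2 CPM to 45.8 and 43.4 CPM. *Inhbb*, a subunit of activin and inhibin, fell from 17.0 to 1.66 CPM in O4AID and had a change of -0.16 in CreER (edgeR adjusted p 0.136). *Nmnat2*, an enzyme of NAD synthesis, had changes of -3.59 and -0.49, *Itga8*, an integrin subunit, of -3.16 and -0.03, and *Rapgef3*, an exchange factor activated by cAMP, of -2.76 and 0.36. Of the 12, *Tcl1* is given above and *Bach2* and *Cabp7* below, and the last 3 are *Gm33027* at -3.94, *Cyp2b23* at -3.86 and *H2-M6-ps*, a pseudogene, at -3.32. *Cyp2b23* and *H2-M6-ps* belong to families of close copies, and the counting rule for reads with several matches is not given in the sources used here, so their values are uncertain.

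Signalling lists were described next, beside 3.13% of all genes called higher and 3.83% called lower in O4AID. Of 11 measured ERK response genes, which report activity of the MAP kinase pathway, 5 were called lower in O4AID (*Spry2*, *Spry4*, *Dusp6*, *Etv5* and *Dusp5*) and 0 higher, at a median log2 change of -0.86 in O4AID and 0.06 in CreER. *Spry2*, a feedback inhibitor of receptor tyrosine kinases, fell from 60.9 to 10.7 CPM in O4AID and had a change of -0.09 in CreER (edgeR adjusted p 0.199), from 88.6 and 89.8 CPM to 83.2 and 84.3 CPM. *Spry4* and *Dusp6* were at 1.96 and 7.90 CPM in O4AID at 0 h and at means of 191 and 130 CPM in CreER. *Etv5* fell in O4AID from 599 to 217 CPM and in CreER from a mean of 342 to 283 CPM. *Ier3* had the highest difference of the list, 0.53, and *Egr1* and *Fosl1* were outside the count rule.

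Of 8 measured canonical Wnt targets, 4 were called higher in O4AID (*Lef1*, *Nkd1*, *Axin2* and *Notum*) and 0 lower, at medians of 1.22 in O4AID and -0.10 in CreER. *Axin2*, the feedback scaffold of the pathway, rose from 41.9 to 138 CPM in O4AID and had a change of 0.12 in CreER (edgeR adjusted p 0.375). *Nkd1* had changes of 1.66 and -0.09, and *Notum*, a secreted Wnt inhibitor, of 1.57 and 0.33. *Sp5*, outside the count rule in CreER, had 568 and 1600 counts in O4AID. *Cdx1*, also outside it there, had 4717 counts at 0 h and 1379 at 24 h in O4AID, and *Ccnd1* was lowest of the list at a difference of -0.73. Whether CreER still received the GSK3 inhibitor after 4-OHT is not settled by the sources used here.

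Of 6 measured BMP genes 3 were called higher, *Id1*, *Id4* and *Msx2*, led by *Id1*, an inhibitor of differentiation, which rose from 1.14 to 4.78 CPM in O4AID and stood at 60.8 to 67.1 CPM in CreER. *Smad6*, an inhibitory SMAD, had changes of 0.62 and 1.07 and was the lowest of the list at -0.45. Of 5 measured Nodal genes 2 were called lower, *Lefty1* and *Nodal*. *Lefty1*, a Nodal inhibitor, had changes of -2.28 in O4AID, where it stood at 1.91 CPM at 0 h, and 0.40 in CreER, where it stood at 32.4 and 29.7 CPM. Of 9 measured genes of LIF and STAT3 signalling, 1 was called, *Pim1*, a kinase, at -1.83, and *Stat3* itself had 0.77.

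In 65 genes both changes were at least 0.5 in size with opposite signs. In 50 of them (0.413%) the gene was lower in O4AID and higher in CreER, and in 15 (0.124%) the reverse. *Bach2*, a transcriptional repressor best known in lymphocytes, fell from 16.7 to 2.75 CPM in O4AID and rose from 2.54 and 2.44 CPM to 3.90 and 3.60 CPM in CreER, at log2 changes of -2.60 (-2.88 to -2.33) and 0.59 (SE 0.162, edgeR adjusted p 0.00813). *Cabp7*, *Lax1*, *Mmrn2* and *Mfap4* had the next largest differences, from -3.13 to -2.52. *Lax1*, an adaptor of immune receptors, had changes of -1.71 and 1.16.

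In the other direction, *Lef1*, a DNA-binding partner of β-catenin and a gene of the formative epiblast, rose in O4AID from 1.25 to 4.45 CPM and fell in CreER from 25.7 and 24.7 CPM to 11.03 and 13.3 CPM. Its log2 changes were 1.83 (1.39 to 2.29) and -1.05 (SE 0.0907, edgeR adjusted p 2.03e-09), and O4AID remained below all 4 CreER libraries at either time. *Pax6*, a homeodomain factor of eye and neural tissue, rose from 3.85 to 12.9 CPM and fell from 10.6 and 10.9 CPM to 5.28 and 5.77 CPM. *Pcdh18*, a protocadherin, went from 0.114 to 3.14 CPM in O4AID, which is 5 counts at 0 h, and from 3.75 and 4.89 CPM to 2.76 and 2.44 CPM in CreER. *Optn*, an autophagy receptor, had changes of 1.63 and -0.99 and *Naprt*, an enzyme of NAD synthesis, of 1.82 and -0.53. Of the 10 genes of this kind that were named, the CreER change kept its sign in libraries of either replicate number. The class asked for a CreER edgeR adjusted p under 0.05 in these same libraries, so that sign was largely set by the choice.

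Few genes met the rule for the deletion alone, whose log2 cut of 1 was reached by 61 genes in CreER against 1124 in O4AID. Unlike the degron-only rule, it also asks for an adjusted p in CreER. A log2 change of at least 1 in CreER with an adjusted p under 0.05 and a change under 0.25 in O4AID was seen in 10 genes, all higher (0.0826%). The first is next to the target. *Cchcr1* (chromosome 17, 35517100 to 35531015, plus strand), which encodes a coiled-coil protein, begins 6327 bases downstream of *Pou5f1*. It read 18.5 and 21.5 CPM at 0 h and 126 and 123 CPM at 24 h in CreER, a log2 change of 2.64 (SE 0.0589, edgeR adjusted p 4.61e-22), which was the largest rise in CreER among the 12107 genes. In O4AID it read 27.7 and 24.6 CPM, a change of -0.17. In CreER the rise was 1.89 at 12 h, 2.46 at 18 h and 2.63 at 36 h, from the same 0 h libraries.

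The genes around it did not all move with it. *Tcf19*, on the minus strand between *Pou5f1* and *Cchcr1*, had a change of 0.19 in CreER (edgeR adjusted p 0.206) and of 0.90 in O4AID. *Psors1c2*, on the plus strand 22428 bases downstream of *Pou5f1*, was outside the count rule through O4AID, and its raw counts in CreER were 173 and 167 at 0 h and 363 and 326 at 24 h. *Cdsn*, farther on, had 19 to 22 counts in the 4 CreER libraries. The counts span whole genes and do not show where in *Cchcr1* the reads lay.

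The other deletion genes lie elsewhere. *Eomes*, a T-box factor of trophoblast stem cells and early mesoderm, rose from 13.9 and 11.1 CPM to 29.7 and 29.2 CPM in CreER, at 1.24 (SE 0.0835, edgeR adjusted p 1.26e-11), and read 8.22 and 8.54 CPM in O4AID. *Trim47*, a ubiquitin ligase, rose by 1.55, *Trpv4*, a calcium channel, by 1.63, *Rgcc* by 1.48 and *Hs3st3b1*, a sulfotransferase of heparan sulfate, by 1.17, with changes of -0.09 to 0.04 in O4AID. *Rgcc* was higher in O4AID at the earlier times, at 1.52 at 6 h and 1.33 at 10 h, and *Trim47* at 1.03 at 6 h. At 36 h in CreER all 10 were higher than at 0 h at an edgeR adjusted p under 0.05.

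The trophectoderm genes listed here as the study's were higher by either route where measured, and other trophoblast genes were mixed in O4AID. Of the first list, the paper's text and supplement name *Cdx2* and *Krt7*. They also name *Eomes*, *Elf5* and *Pl-1*, which stand on the other list here, *Pl-1* as *Prl3d1*. *Eomes* did not rise in O4AID, at a log2 change of 0.05. *Elf5* and *Prl3d1* were outside the count rule, *Prl3d1* with 0 counts in O4AID at 0 h and at 24 h. Of the 5 on the study's list, *Cdx2*, *Gata3* and *Krt7* passed the count rule. All 3 were higher in O4AID by at least 1, and all 3 were higher in CreER at an edgeR adjusted p under 0.05. *Cdx2*, the caudal homeobox factor that specifies trophectoderm, rose from 0.957 to 2.90 CPM in O4AID and from 2.73 and 2.61 CPM to 5.25 and 5.44 CPM in CreER, at 1.60 (1.09 to 2.14) and 1.00 (SE 0.161, edgeR adjusted p 3.83e-05). *Gata3* had changes of 1.32 and 0.67. *Krt7*, a keratin of simple epithelia, rose from 0.478 to 8.12 CPM in O4AID and from 8.16 and 8.22 CPM to 10.3 and 10.3 CPM in CreER, so that its difference of 3.76 came with a 0 h level below that of CreER. *Hand1* and *Gcm1* were outside the rule through O4AID. *Hand1* had 14 counts at 0 h and 73 at 24 h there, and 264 and 241 against 778 and 689 in CreER, and *Gcm1* had 4 and 46, against 122 and 152 and then 429 and 359. The summed level of the 5 rose from 3.10 to 16.7 CPM in O4AID and from 28.2 and 26.1 CPM to 57.6 and 58.0 CPM in CreER. This list too was drawn up with results of these libraries known.

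Of 12 other trophoblast genes measured, 5 were called higher and 2 lower in O4AID, beside 3.13% and 3.83% of all genes. The higher ones were the keratins *Krt8*, *Krt18* and *Krt19*, and the transcription factors *Gata2* and *Esx1*, at differences of 1.63 to 4.52. *Tead4*, a TEA-domain factor upstream of *Cdx2*, was lower, falling from 52.6 to 18.97 CPM in O4AID and rising from 10.9 and 10.2 CPM to 15.3 and 13.3 CPM in CreER. *Eomes* was the second. The list's median difference was 0.09, and 8 of the 12 were higher in CreER at an edgeR adjusted p under 0.05, beside 13.9% of all genes. In O4AID 5 of the 12 had negative changes, among them *Tfap2c* at -0.18. In primitive endoderm, the other early extraembryonic layer, 2 of 7 measured genes were called higher, *Dab2*, an endocytic adaptor, at 2.78 and *Col4a2*, a basement membrane collagen, at 1.17. *Gata6*, outside the rule through CreER, had 213 and 968 counts in O4AID, and 22 and 21 against 82 and 67 in CreER. Of 12 epithelial junction genes, *Cldn6*, a claudin, was the gene called higher, at 2.29.

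All 6 measured genes of the formative epiblast, the stage after the naive state, were lower in CreER at an edgeR adjusted p under 0.05 (14.3% of all genes were), at a median of -0.75, and in O4AID 3 had negative changes, at a median of -0.31. *Zic2* had changes of -0.87 and -0.98 and *Otx2* of -1.07 and -0.51. *Dnmt3a*, a de novo DNA methyltransferase, had changes of 0.37 in O4AID and -0.36 in CreER. Of 5 measured genes of the two-cell-like state, 3 were called lower in O4AID, and their changes in CreER lay between -0.24 in *Usp17lc* and 0.03 in *Zscan4f*, at edgeR adjusted p from 0.0709 to 0.991. *Zfp352* had the largest difference, -1.90, and the Zscan4 genes on the list are close copies whose reads may be shared.

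The remaining lists cover metabolism, stress and other cell types, and their counts stand beside 3.13% of all genes called higher and 3.83% called lower in O4AID. Of 17 glycolysis genes 4 were called lower and 0 higher, at medians of -0.55 in O4AID and -0.06 in CreER, and 16 of 17 differences were negative. *Pfkp*, a phosphofructokinase, went from 303 to 97.98 CPM in O4AID and from 159 and 171 CPM to 210 and 210 CPM in CreER. *Aldoc* was highest, at 0.18. Of 18 genes of cholesterol synthesis, 8 were higher in CreER at an edgeR adjusted p under 0.05, the largest change being 0.47 in *Fdps*. No gene was called for the difference among 14 p53 targets, 12 ATF4 targets and 9 NRF2 targets, and *Phlda3*, *Ddit4* and *Srxn1* were their highest at 0.96, 0.17 and 0.67. Of 15 cell cycle genes 2 were called higher, led by *Ccnd2*, cyclin D2, at 2.25. Of 8 measured genes of the MYC network, *Mxd4* was called higher at 1.78 and *Mycl* lower at -1.52, and *Myc* itself had 1 and 4 counts in O4AID and 407 to 747 in CreER. Of 4 measured interferon genes *Oasl2* was called higher at 2.73. Of 13 genes of DNA methylation and Polycomb 2 were called lower, *Tet2* at -1.26 being the lowest, and of 7 germline genes *Taf7l* was called higher at 1.55. Among marker lists of other cell types, 1 of 8 mesendoderm, 4 of 10 neural and 2 of 10 fibroblast genes passed the count rule, with *Tubb3* at -2.20, *Kdr* at -2.01 and *Col1a1* at -2.78. The difference of *Tubb3* reversed to 0.86 with O4AID at 10 h in place of 24 h.

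**Figure D4:**
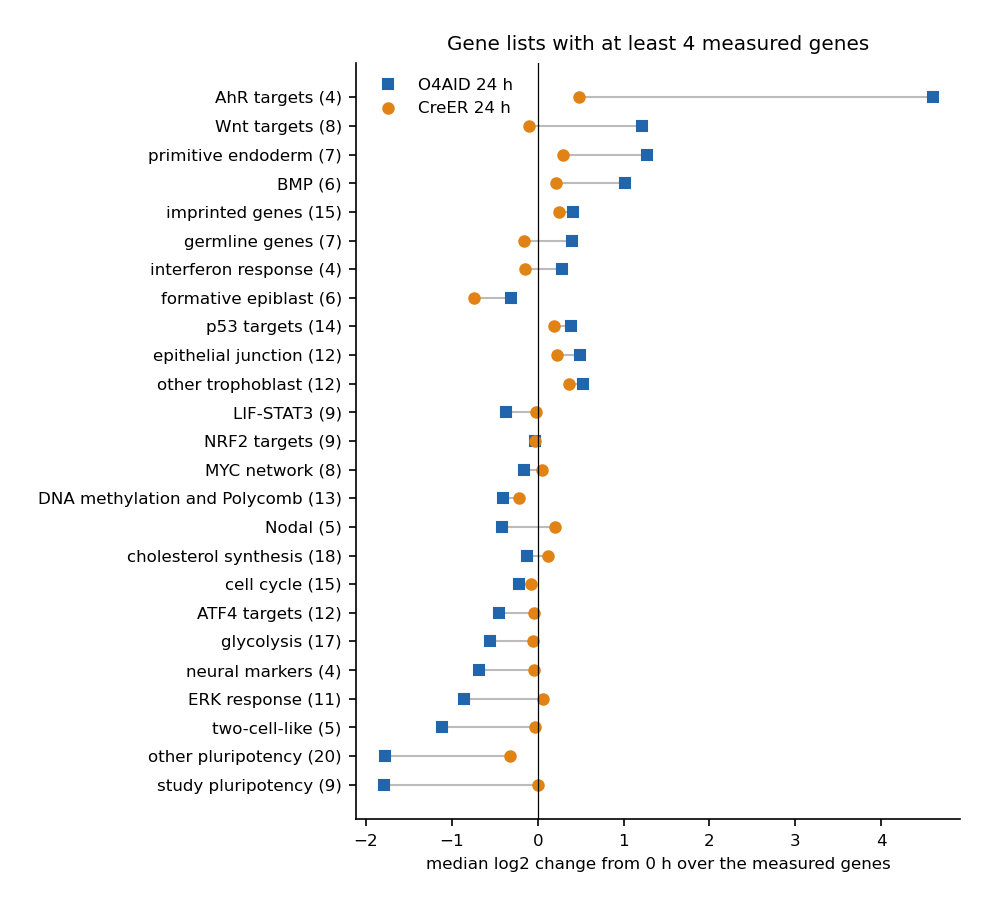
Median log2 change from 0 h to 24 h (x axis) over the measured genes of each list with at least 4 of them (y axis, number measured in parentheses, ordered by median difference), with blue squares for O4AID and orange circles for CreER. AhR targets lie farthest right, at 4.60 in O4AID against 0.48 in CreER, and both pluripotency lists lie farthest left, near -1.8 in O4AID.

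The other times are given beside the classes, which were set at 24 h, and share the 0 h libraries. Genes lower in both lines had a median of -0.72 at 6 h and -1.03 at 10 h in O4AID, and of -0.18 by 12 h, -0.40 by 18 h, -0.65 by 24 h and -1.003 by 36 h in CreER. Degron-only genes lower in O4AID had -0.41 at 6 h, -0.63 at 10 h and -1.30 at 24 h in O4AID, and -0.14 at 36 h in CreER. At 36 h, 99 of these 284 (34.9%) were lower in CreER at an edgeR adjusted p under 0.05, beside 22.2% of all genes, and 46 (16.2%) were higher, beside 24.6%. Degron-only genes higher in O4AID had a median of 0.12 at 36 h, with 69 of 251 (27.5%) higher and 25 (9.96%) lower. The class rule limits the CreER change at 24 h and the 0 h libraries are the same, so these shares are partly set by the choice.

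**Figure D5:**
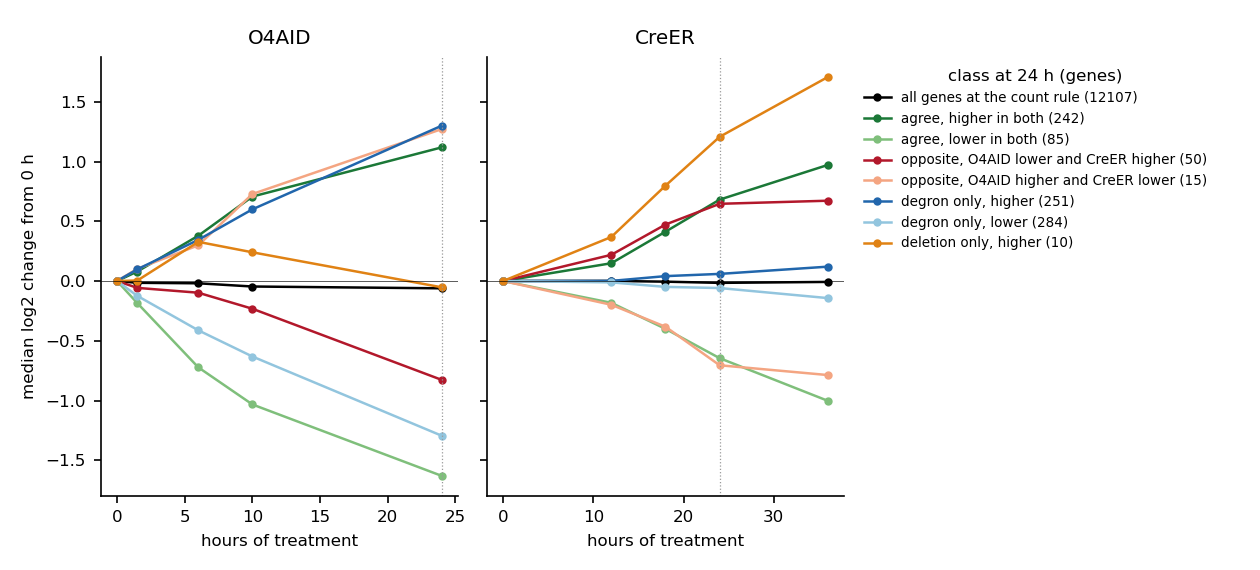
Median log2 change from 0 h (y axis) against hours of treatment (x axis) in O4AID (left) and CreER (right) for the classes set at 24 h (dotted line) and for all 12107 genes (black). Degron-only genes end near 1.30 and -1.30 in O4AID and stay within 0.15 of 0 in CreER up to 36 h, and the deletion-only genes reach 1.71 in CreER at 36 h.

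Features of the classes are given as a description. Protein-coding genes made up 92.9% of all genes, 98.4% of degron-only genes higher in O4AID and 84.5% of those lower in it, where pseudogenes made up 9.15% beside 3.51% of all genes. Degron-only genes lower in O4AID had a median exon length of 3118 bases, beside 4038 over all genes. The 0 h level, which enters the changes and the count rule, was low in genes higher in both lines, with medians of 6.13 CPM in O4AID and 5.48 CPM in CreER, beside 32.0 and 25.8 CPM over all genes. A group mean under 50 counts at 0 h or 24 h in either line was present in 174 of the 843 genes called for a difference and in 394 of all genes, so that part of the calls passed the count rule through the time at which they were high.

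Promoters were matched by symbol for 9081 of the 12107 genes. A gene with several starts was counted once. GCGTG was present in 58.1% of these genes, in 51.4% of the 292 matched genes called higher in O4AID and in 48.3% of the 296 called lower, so the called genes held the letters marked in *Cyp1a1*, *Cyp1b1* and *Tiparp* less often than all matched genes by these counts, which were not tested. ATTTGCAT was present in 1.55% of all matched genes, in 3 of 57 genes lower in both lines (5.26%) and in 4 of 175 degron-only genes lower in O4AID (2.29%). In the rising classes it was present in 2 of 190 genes higher in both lines (1.05%) and 5 of 198 degron-only genes higher in O4AID (2.53%). It was also in 1 of 9 deletion-only genes (11.1%), so these shares, which were not tested, do not separate falling from rising classes. The joined octamer and SOX element was present in 1 matched gene, *Nanog*. A match is a description of the letters in this window and not of binding.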

How the data were processed

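Libraries were made from rRNA-depleted RNA and sequenced as directional paired ends. The authors trimmed reads with Trim Galore 0.1.4, aligned them to GRCm38 with TopHat2 2.1.0 and deposited raw counts per gene made with featureCounts 1.5.1. Strand and multiple-match settings are not given in the sources used here. The deposited normalised table was not used. Counts were scaled by TMM over 15 libraries in edgeR 4.0.16 (R 4.3.3). The change in O4AID is a ratio of 1 library to 1 library with an exact Clopper-Pearson 95% interval (SciPy 1.17.1). The change in CreER is a ratio of means, tested by edgeR's quasi-likelihood test over 10 libraries and 18969 genes with Benjamini-Hochberg adjustment.

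A difference was called at 1 or more in size, also without any 1 CreER library. Genes at 0.25 or less in the other line formed the single-route classes, and 0.5 was needed for agreement. Named were the 12 largest differences in each direction, up to 8 genes of each agreeing class, 6 of deletion only, 5 of each opposite class and the extremes of 29 gene lists, and some list members were added for their role after values were seen. A few list extremes are not reported here. Members and lists were chosen with earlier results of these data known. Alternatives were other scalings, pseudocounts, count rules, thresholds, times, DESeq2 1.42.0 and leaving out each library. On simulated counts for CreER at 24 h over 18946 genes, the test recovered 85% of genes changed 1.5-fold and 100% of those changed 2-fold.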

Additional observations from a re-analysis of the deposited data

Results flagged for a closer look

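Of the 65 genes with changes of at least 0.5 in opposite directions, the 10 that the naming rule picked had both CreER replicate numbers on the other side of 0 from O4AID. The difference itself was not tested, since O4AID has 1 library at each time. *Bach2* had a difference of -3.19, *Cabp7* of -3.13, *Lax1* of -2.88, *Mmrn2* of -2.64 and *Mfap4* of -2.52, each lower in O4AID and higher in CreER. *Naprt* had 2.35, *Optn* 2.62, *Pax6* 2.71, *Lef1* 2.88 and *Pcdh18* 5.52, each higher in O4AID and lower in CreER. They were named as the largest of their classes, which also asked for an edgeR adjusted p under 0.05 in CreER. Their size, and largely the shared sign of the CreER replicates, are therefore set by the choice.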

How the results depend on the processing

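Counts of genes depended on the count rule, the time and the threshold. A mean count of 10 or more gave 1756 called genes (938 lower and 818 higher in O4AID). A mean count of 200 or more gave 391 (239 and 152). A difference of at least 1.5 gave 339 (177 and 162), and O4AID at 10 h gave 242 (146 and 96). The edgeR interaction followed another rule and gave 5631 (3297 and 2334) at an adjusted p under 0.05, with no cut on size. Of these, 990 had a difference of at least 1 in size, and the spread of O4AID was assumed from the CreER replicates. Leaving out each CreER library gave 996 to 1029 genes at a difference of 1 (538 to 561 lower, 450 to 471 higher). With little change set at 0.5, the degron-only classes held 461 higher and 428 lower genes. With agreement set at 1, 20 and 9 genes agreed and 4 and 1 were opposite. Deletion-only lower held 1 gene under total counts, RLE size factors or the 0.5 limit, and deletion-only higher held 5 under a mean of 50 counts at each time, an alternative chosen after seeing the data.

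The CreER count at 24 h was 4089 of 18969 genes, of which 51.0% were higher, against 61.3% under total counts. DESeq2 gave 2595, and leaving out a library gave 2343 to 3703, with 2470 without the first and 2343 without the second 24 h replicate. With the replicate number as a block it was 4139, of which 4033 were shared. Same-numbered libraries correlated at -0.021 to 0.050 in their deviations, so the numbers were not taken to pair them.

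The median difference of AhR targets, 4.27, was 4.28 with TMM within each line, 4.37 under total counts, 4.29 under RLE, 4.12 against CreER at 36 h and 4.24 to 4.29 leaving out a library. For the study's pluripotency genes, -1.90 became -1.79 under total counts, -1.87 under RLE or against 36 h, and -1.92 to -1.87 leaving out a library. For other pluripotency genes, -1.23 became -1.13 under total counts, -1.10 against 36 h and -1.27 to -1.24 leaving out a library. For the study's trophectoderm genes, 0.65 became 0.35 against 36 h and 0.63 to 0.91 leaving out a library. *Tubb3* reversed, to 0.86, with O4AID at 10 h. The cause of these moves was not tested. Values rest on 1 O4AID library at each time, and counts at low 0 h levels limit the largest ratios.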
